A study of Mus musculus with 8 samples.

Results

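Open chromatin sites found only in type 1 conventional dendritic cells (cDC1) of mouse spleen were collected from 8 ATAC-seq libraries. A site was a group of peak summits lying within 250 bp of each other, made after every list had been shortened to its best-scored summits, as many as the shortest list held. The sites described here had a summit in all 4 cDC1 libraries, in none of the 4 libraries of type 2 conventional dendritic cells (cDC2), and no cDC2 summit within 1 kb. There were 4355 such cDC1-only sites among 112443 sites in all. They made up 4355 of the 41868 sites present in all 4 cDC1 libraries. The members were chosen by the measured summits themselves, so their presence in cDC1 and absence from cDC2 is a description and was not tested.

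Dendritic cells were enriched from spleen and sorted for CD11c and MHCII, without lineage markers or CD64. The cDC1 were XCR1+CD11b- and the cDC2 XCR1-CD11b+. The WT mice carried a floxed Hdac1 gene and no Cre, and the KO mice carried it with Mx1-Cre. Mice of every group, the WT included, had been given poly I:C, and the cells were sorted 2 weeks later. The Mx1 promoter answers to interferon, which poly I:C induces, and is active in blood-forming cells and in other tissues, so the deletion is not limited to dendritic cells. Each subset of each genotype had 2 libraries, which makes 4 groups. The labels do not say that the libraries of a group came from separate animals, so every p-value here measures only the spread between these libraries, which may be technical. Hdac1, the targeted gene, held 3 sites, of which 1 was in all 8 libraries. A list of summits does not show whether its floxed part was deleted.

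The deposited lists held 74963 to 96031 summits in the cDC1 libraries and at most 78296 in the cDC2 libraries. They give no read counts, so the depth of each library is unknown. The authors' score of a summit is its own value within 1 library and rises with depth. It was used only to rank the summits of a library, and each site is given below by its rank percentile, where 100 is the highest summit of that library's shortened list and 0 the lowest. Values of a site in the 4 cDC1 libraries are always given in the order WT replicate 1, WT replicate 2, KO replicate 1 and KO replicate 2. In bulk cells, more cells of a type with an open site and a site open in a larger share of the cells cannot be told apart.

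The cDC1 are the dendritic cells that take up dying cells and present their antigens on MHC class I to CD8 T cells. They depend on the transcription factors IRF8 and BATF3, while cDC2 present mainly on MHC class II to CD4 T cells and depend more on IRF4, and for some of them on Notch2. A summit of ATAC-seq marks a stretch of DNA that the Tn5 transposase can reach, usually a promoter or an enhancer, where transcription factors hold nucleosomes aside. Promoters tend to be open in many cell types, and enhancers are more often particular to one. HDAC1 is a histone deacetylase and removes the acetyl groups that accompany open chromatin.

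Few cDC1-only sites lay at a promoter, and the sequences of 6 that did are shown because they place the summits against the start of a gene. They are those of the gene lists used here, Cd8a, Clec9a, Gpr33 and Itga2b, followed by the 2 of highest rank among the other sites that lie before a start, Got2 and Gm41217. Each line gives the 200 bases that end just before the annotated start, from RefSeq in the GRCm38.p6 build, with the span between the outermost cDC1 summits in capitals.
Cd8a, chr6:71373227-71373426, plus strand: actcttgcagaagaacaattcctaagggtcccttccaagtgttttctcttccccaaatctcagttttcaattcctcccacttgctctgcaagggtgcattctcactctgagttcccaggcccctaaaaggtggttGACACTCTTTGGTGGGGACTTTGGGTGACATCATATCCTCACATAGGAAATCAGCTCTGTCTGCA
Clec9a, chr6:129408662-129408861, plus strand: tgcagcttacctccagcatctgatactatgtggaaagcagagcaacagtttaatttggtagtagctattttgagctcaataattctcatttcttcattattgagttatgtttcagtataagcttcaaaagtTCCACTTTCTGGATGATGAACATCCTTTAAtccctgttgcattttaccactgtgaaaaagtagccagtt
Gpr33, chr12:52028064-52028263, minus strand: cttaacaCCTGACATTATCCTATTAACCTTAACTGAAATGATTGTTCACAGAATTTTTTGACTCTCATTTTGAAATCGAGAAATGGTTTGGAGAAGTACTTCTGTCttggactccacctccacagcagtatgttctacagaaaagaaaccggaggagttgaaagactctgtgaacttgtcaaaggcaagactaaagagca
Itga2b, chr11:102469884-102470083, minus strand: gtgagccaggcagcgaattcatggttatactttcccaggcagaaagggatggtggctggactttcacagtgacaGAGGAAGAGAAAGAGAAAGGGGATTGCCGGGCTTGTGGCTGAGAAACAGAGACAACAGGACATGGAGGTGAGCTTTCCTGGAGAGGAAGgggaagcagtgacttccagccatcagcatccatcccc
Got2, chr8:95888402-95888601, minus strand: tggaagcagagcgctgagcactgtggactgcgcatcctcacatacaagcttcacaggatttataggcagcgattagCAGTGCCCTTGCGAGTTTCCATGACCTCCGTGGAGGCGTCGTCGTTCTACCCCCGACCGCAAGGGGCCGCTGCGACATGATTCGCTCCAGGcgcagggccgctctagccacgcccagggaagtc
Gm41217, chr14:77371009-77371208, minus strand: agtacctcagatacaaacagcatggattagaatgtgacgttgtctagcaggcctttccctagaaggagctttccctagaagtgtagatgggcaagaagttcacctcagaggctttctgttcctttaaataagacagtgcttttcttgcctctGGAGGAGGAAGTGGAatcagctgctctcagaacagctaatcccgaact

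Cd8a encodes the alpha chain of CD8, which splenic cDC1 carry on their surface. Its promoter site (chr6:71373362-71373454) was centred 19 bases before the start and stood at percentiles 75.5, 72.5, 85.8 and 87.9. Both KO libraries lay above both WT libraries at this site. The KO minus WT difference of 12.8 percentile points (SE 4.24) did not pass limma's test (adjusted p = 0.464). Clec9a encodes the receptor by which cDC1 recognise dead cells. Its promoter site (chr6:129408793-129408822) was centred 55 bases before the start and stood at 52.6, 60.3, 67.5 and 55.9, with the WT and KO libraries overlapping. By gene span this site lies nearest to Clec12b, the neighbouring gene, and is counted there below. Gpr33, a receptor related to those for chemoattractants, had its site centred 144 bases before the start at 53.7, 60.3, 64.3 and 49.9, again with overlapping genotypes. Itga2b, the platelet integrin subunit of megakaryocytes, had a lower ranked promoter site at 18.9, 50.1, 43.5 and 13.9. Got2, a mitochondrial aspartate aminotransferase, had the promoter site of highest rank, at 84.6, 78.5, 83.9 and 86.1, and Gm41217 stood at 73.6, 74.7, 73.1 and 78.0.

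Short motifs were searched on both strands of the RefSeq windows, which run from 250 bases before to 50 after a start. The composite of ETS and IRF factors, as PU.1 forms with IRF8 or IRF4, was taken as GGAA and GAAA with 2 bases between them. It was found in 5 of the 35 windows that overlapped a cDC1-only site, those of Cd8a, Gm41217, Gpr33, Itga2b and Pdcd1. This is 14.3%, beside 2.17% of the 46 windows at cDC2-only sites, 2.48% of the 7328 windows at sites in all 8 libraries and 2.72% of all 32851 windows. In Itga2b the match overlapped the capitals above, and in Pdcd1 it also overlapped the span between the outermost cDC1 summits. In Cd8a and Gm41217 it lay in the lower-case part. In Gpr33 it lay outside that span and before the bases shown. An interferon response match, GAAA and GAAA with 2 bases between them, was in 4 windows, or 11.4%, beside 4.35%, 2.78% and 3.44% in the same order. An AP-1 match (TGANTCA) was in 17.1% of the windows at cDC1-only sites, in 13.0% at cDC2-only sites and in 7.81% of all windows.

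The short ETS motif AGGAAG was common everywhere, in 45.7% of the windows at cDC1-only sites, 39.1% at cDC2-only sites and 35.4% of all windows. The longer PU.1 form GAGGAAGT, which contains it, was in 1 of the 35 windows, that of Gm41217, where it fell within the capitals. It was in 10.9% of the windows at cDC2-only sites and 3.20% of all windows. The E-box CAGCTG was in 28.6%, beside 13.0% at cDC2-only sites and 16.3% of all windows. The RUNX motif TGTGGTT was in 5.71% beside 5.27% of all windows, the D-box TTANNTAA of NFIL3 in 5.71% beside 6.0%, and the TATA box TATAAA in 8.57% beside 13.6%. The longer AP-1 and IRF composite, TTTC and TGANTCA with 4 bases between them, was in 0 of the 35 windows and in 0.119% of all windows. The windows at cDC1-only sites had a median GC content of 51.3%, near the 52.7% of all windows and below the 62.0% of windows at sites in all 8 libraries. With 35 windows each match weighs 2.86%, so these shares describe the windows and no difference between them was tested.

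The cDC1-only sites lay away from gene ends. A gene end is either end of a protein-coding gene span, because the annotation used gives no strand or exons, and exons and introns were therefore not separated. Only 153 of the 4355 sites, or 3.51% (95% Wilson interval 3.01 to 4.10), were within 1 kb of a gene end. Another 2415, or 55.5%, were inside a gene and 1787, or 41.0%, between genes. In contrast, 31.1% of the sites in all 8 libraries lay at a gene end, 38.1% inside and 30.8% between genes. Over all 112443 sites these shares were 16.1%, 46.6% and 37.3%. The cDC2-only sites, chosen by the mirrored rule and 2261 in number, had similar shares by gene span, with 4.20% at a gene end, 52.2% inside and 43.6% between genes. The interval for gene ends in the cDC2-only sites, 3.45 to 5.11, overlapped that of the cDC1-only sites. These intervals cover counting error only.

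**Figure D1:**
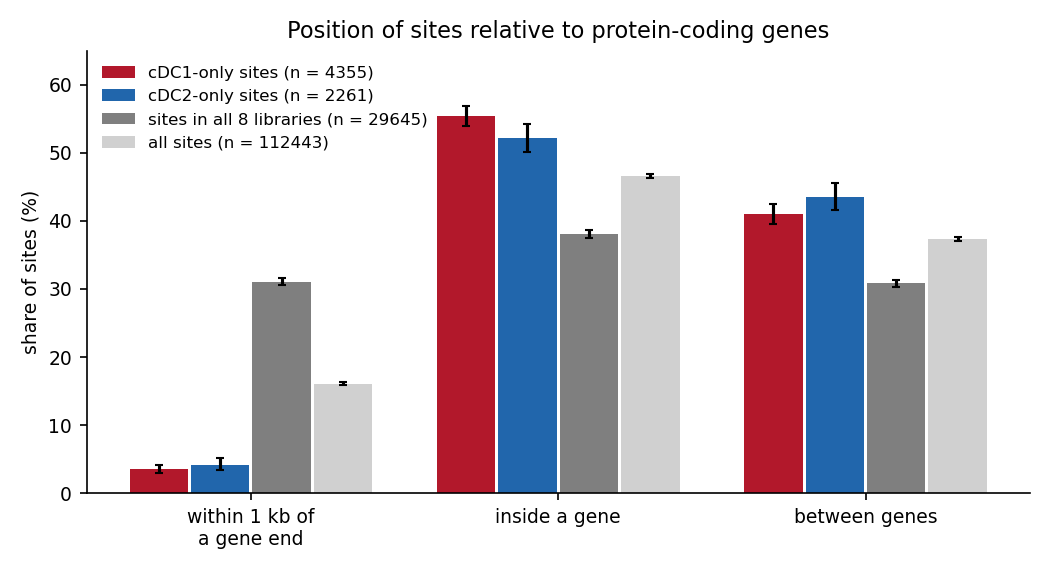
Share of sites (%, y axis) within 1 kb of a gene end, inside a gene and between genes (x axis), for cDC1-only sites, cDC2-only sites, sites in all 8 libraries and all sites. Bars are shares and whiskers 95% Wilson intervals. At gene ends the 2 subset-only sets stand at 3.51% and 4.20%, sites in all 8 libraries at 31.1% and all sites at 16.1%.

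Distance from an annotated start was measured separately. The table of starts holds none for chromosome 18, so 4184 of the cDC1-only sites could be measured. Their median distance was 24.4 kb, beside 23.6 kb for cDC2-only sites, 10.1 kb for sites in all 8 libraries and 16.7 kb for all sites. Only 94, or 2.25%, lay within 1 kb of a start, 24.7% lay from 1 to 10 kb, 43.5% from 10 to 50 kb, 14.2% from 50 to 100 kb and 15.4% farther away. Of the cDC2-only sites 84 of 2174, or 3.86%, lay within 1 kb of a start, a larger share than that of the cDC1-only sites, and of the sites in all 8 libraries 30.5%. Within the narrower RefSeq windows lay 35 of the 4184, or 0.837%, beside 2.12% of the cDC2-only sites and 25.5% of the sites in all 8 libraries.

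The share at gene ends went down step by step with the number of cDC2 libraries that lacked the site. Among the 41868 sites in all 4 cDC1 libraries it was 31.1% for those in 4 cDC2 libraries, 14.7% in 3, 10.7% in 2, 6.95% in 1 and 4.25% in 0. The cDC1-only sites are the last of these classes after the removal of 510 sites with a cDC2 summit at most 998 bp away.

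Chromosomes carried the sites at similar shares. Of the sites in all 4 cDC1 libraries, cDC1-only sites made up from 8.57% on chromosome 8 to 12.9% on chromosome 18, and 10.8% on the X chromosome. The Y chromosome had 2 sites in all 4 cDC1 libraries and 0 cDC1-only sites.

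In rank, the cDC1-only sites were mid-list sites and seldom among the strongest. Their median percentile was 47.6 and 47.0 in the WT libraries and 44.0 and 45.9 in the KO libraries. Sites in all 8 libraries had medians of 72.7, 72.6, 73.0 and 72.7 in the same libraries. Averaged over the 4 cDC1 libraries, the cDC1-only sites ran from 4.51 to 92.4 with a median of 43.4. Of the 4355 sites 238 had a mean percentile of at least 75, 9 of at least 90 and 549 of under 25. The cDC2-only sites stood a little lower in their own libraries, with medians of 39.8 and 41.1 in WT and 39.1 in both KO libraries.

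**Figure D2:**
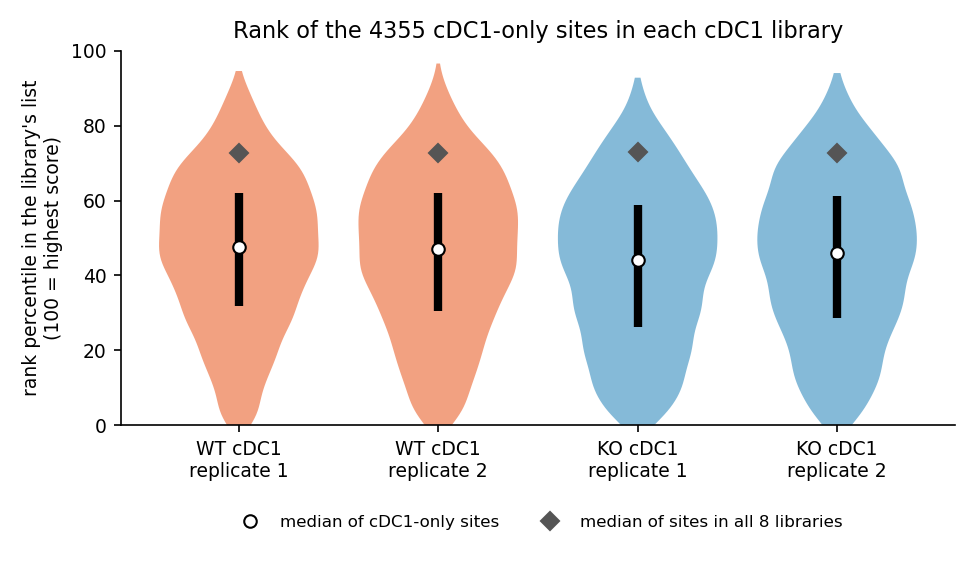
Rank percentile (y axis, 100 is the highest score of a library) of the 4355 cDC1-only sites in each cDC1 library (x axis). Shapes show the distribution, circles the median, bars the middle 50% of sites and diamonds the median of sites in all 8 libraries, and the circles lie at 44.0 to 47.6, below the diamonds at 72.6 to 73.0.

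The summits of a site lay close together, which the chaining within 250 bp in part fixes. The 4 summits of a site spanned a median of 69 bp (middle 50% of sites 45 to 100 bp), beside 60 bp for sites in all 8 libraries. A single summit per library made up 99.2% of the sites. The percentiles of a cDC1-only site spread over a median range of 27.2 points across the 4 libraries, beside 13.5 for sites in all 8 libraries. The median absolute difference between 2 libraries was 10.9 between the WT libraries, 13.1 between the KO libraries and 12.5 to 13.5 across genotypes. For sites in all 8 libraries these differences were 5.00 to 6.37. The 2 sets also differ in rank, with a median mean percentile of 43.4 for cDC1-only sites and 71.4 for sites in all 8 libraries. Whether the wider spread goes with rank alone was not tested.

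The 10 cDC1-only sites with the highest mean percentile are given by that choice, which also keeps their 4 values close. The first (chr15:57929583-57929615) lay inside Tbc1d31 at 92.4, 95.7, 89.8 and 91.7. The next (chr7:58950494-58950534) had no protein-coding gene within 50 kb and stood at 93.7, 90.8, 92.8 and 91.7. A site inside Kcnh8, a potassium channel gene (chr17:52626195-52626250), stood at 90.2, 94.3, 91.6 and 92.4. A site inside Nup160, a nuclear pore gene (chr2:90685253-90685271), stood at 89.8, 92.5, 91.4 and 94.1. The other 6 had mean percentiles of 89.8 to 91.2. They lay near Slc14a2 and Cnmd, inside Lrba and Macrod2, and at 2 places farther than 50 kb from a gene. None of the 10 was at a gene end, and none was given to a gene of the lists described below.

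The cut that defines the lists decided which sites counted. The worst rank of a member in any cDC1 list was 61725, close to the end of the shortened lists, and 162 members had their worst rank in the last 1000 places. Another 2842 sites met the rule in 3 of the 4 cDC1 libraries. For 1687 of these the missing library had a summit below the cut, the nearest at rank 61754, and 146 were within 1000 places of it. On the side of the cDC2, the nearest cDC2 summit lay 1001 bp from the closest member, at a median of 7009 bp, and beyond 10 kb for 1627 members.

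"Only in cDC1" therefore refers to lists of equal length. The shortest cDC2 list, replicate 2 of WT, ended at the cut, but the other 3 cDC2 lists held 4872, 7288 and 16559 further summits. These lower ranked summits fell within 1 kb of 126, 165 and 512 of the 4355 sites, and the counts cannot be compared between libraries because the lists differ in length. In all, 700 sites, or 16.1%, had a lower ranked cDC2 summit within 1 kb and 268 had one inside the site. The remaining 3655, or 83.9%, had none in any deposited cDC2 list. With lists of 50% of that length the rule gave 2346 sites, of which only 850 were among the 4355, and with all deposited summits it gave 6047, of which 3654 were.

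Because the rule used all 8 libraries, the pattern was also read in libraries that took no part in a choice. Only the choice left those libraries out, since the sites had been chained from the summits of all 8. Sites were first chosen by the same rule in the 4 WT libraries alone, which gave 8867, and looked up in the KO libraries. They had a summit in 75.4% and 77.1% of cases in the KO cDC1 libraries and in 11.2% and 14.0% in the KO cDC2 libraries, against 54.5% to 54.8% for all sites. The cDC1 libraries lay above this level and the cDC2 libraries below it, and the groups did not overlap. This level takes in every site, also those with a summit in a single library. The chosen sites already had a summit in both WT cDC1 libraries, so the level is not a like-for-like comparison. The difference of 63.7 percentage points had an exact permutation p of 0.333 (2-sided), the smallest that 2 libraries against 2 can give.

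The reverse choice gave 7592 sites from the KO libraries. They were found in 80.7% and 79.9% of cases in the WT cDC1 libraries and in 11.2% and 10.1% in the WT cDC2 libraries, a difference of 69.7 points (exact permutation p = 0.333, 2-sided, again the smallest possible). Of the sites chosen in WT, 50.2% had a summit in both cDC1 libraries of the other genotype and no cDC2 summit inside the site. Of those chosen in KO, 58.5% did. The 1 kb distance to a cDC2 summit was not asked of the other genotype.

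**Figure D3:**
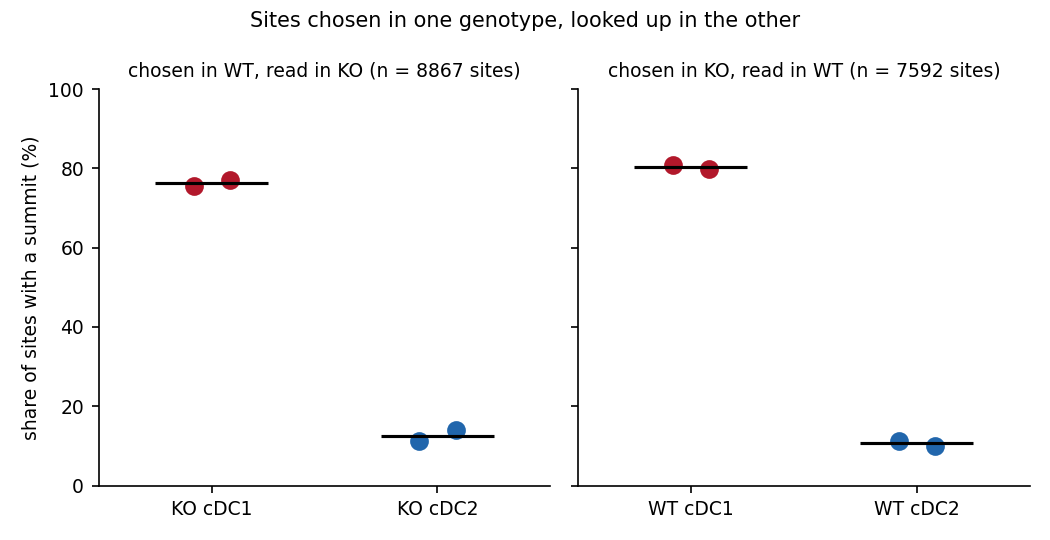
Share of sites with a summit (%, y axis) in each library of the genotype that took no part in the choice (x axis), for sites chosen in WT (left) and in KO (right). Points are libraries and lines their means, and cDC1 libraries lie at 75.4% to 80.7% and cDC2 libraries at 10.1% to 14.0%.

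Each site was given to the nearest protein-coding gene within 50 kb. This placed 3646 of the sites at 2693 genes and left 709 without a gene. Of the 16622 genes with any site, 16.2% held a cDC1-only site and 9.49% a cDC2-only site, and each share is the background for the counts of its own kind below. There were 633 genes with 2 or more cDC1-only sites and 29 with 5 or more. Most genes with such a site were open in cDC2 as well, since 2274 of the 2693, or 84.4%, also held a site in all 8 libraries, and 411 held a cDC2-only site. The share of all genes that hold a site in all 8 libraries is not given here, so 84.4% has no background. Genes with a cDC1-only site were long, with a median span of 60.3 kb beside 23.1 kb for all genes with a site, and those with 5 or more had a median of 367 kb.

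The 20 genes with the most cDC1-only sites followed this pattern, with a median span of 443 kb. Dlg2, a scaffold gene of synapses that spans 1973 kb, held 9 of them among 54 sites. P3h2, a collagen prolyl hydroxylase gene of 147 kb, held 9 among 26 sites, at mean percentiles from 15.7 to 65.8. Its count per length was the highest of the 20 genes, at 6.14 per 100 kb beside 0.456 for Dlg2. Adgrv1, an adhesion receptor gene, and Plcb4, a phospholipase C gene, held 7 each. Lekr1, Gm38469, Zfpm2, Dcdc5, Snx29, Vps13b, Nedd4l, Nsmce2, Ttc7b and Immp2l held 6 each, and Snd1, Mllt3, Gpc6, Slc14a2, Mast4 and Ptprm 5 each. At Dcdc5, 6 of 14 sites were cDC1-only and 0 were in all 8 libraries. Zfpm2, a GATA cofactor gene, held 1 of the strongest (chr15:40972856-40972858) at 88.7, 91.7, 91.0 and 86.4.

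Some cDC1-only sites lay in short runs. The median distance to the nearest other such site was 83.3 kb, and 563 sites, or 12.9%, had another within 10 kb. They formed 268 runs, of which 246 held 2 sites, 17 held 3 and 5 held 4. The runs of 4 lay at Dcdc5, Cttnbp2, Zfpm2 and Nsmce2 and at 1 place on chromosome 8 without a gene. Cttnbp2 is named here after its values were seen. The share with a neighbour within 10 kb was 7.65% for cDC2-only sites and 45.3% for sites in all 8 libraries, sets that differ in number and hence in spacing. A run of 3 at Cd8a covered chr6:71373362-71382507, from the promoter to beyond the far end of the gene, with no cDC2 summit at any other site in that stretch.

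Genes of cDC1 identity held cDC1-only sites more often than genes in general, as a description. Of the 29 genes of that list with a site 15, or 51.7%, held at least 1, beside 16.2% of all genes with a site, and the 15 genes held 30 of the sites. Their median span was 15.9 kb, shorter than the 23.1 kb of all genes. Of the same 29 genes 5, or 17.2%, held a cDC2-only site, also above the 9.49% of all genes. In the cDC2 identity list 6 of 25 genes (24%) held a cDC1-only site, against the background of 16.2%, and 8 (32%) a cDC2-only site, against 9.49%. Dendritic cell transcription factors stood at 14 of 35 (40%), maturation and cytokine genes at 10 of 27 (37.0%), receptors for growth factors and chemokines at 4 of 16 (25%), MHC class I and cross-presentation at 4 of 21 (19.0%) and pan-cDC and MHC class II genes at 3 of 15 (20%). The histone deacetylases and partners of HDAC1 stood at 5 of 30 (16.7%), at the background. None of these shares is corrected for the number of sites in a gene. A gene with more sites can more easily hold a cDC1-only one. The transcription factor genes held from 2 (Batf2) to 70 (Etv6) sites of any kind, and 15 cDC1-only sites in all. Their median span was 36.05 kb, and that of the maturation and cytokine genes 10.2 kb. Whether a list held more cDC1-only sites than its number of sites would give was not tested. The lists were drawn up with earlier results of these data known and share some genes.

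**Figure D4:**
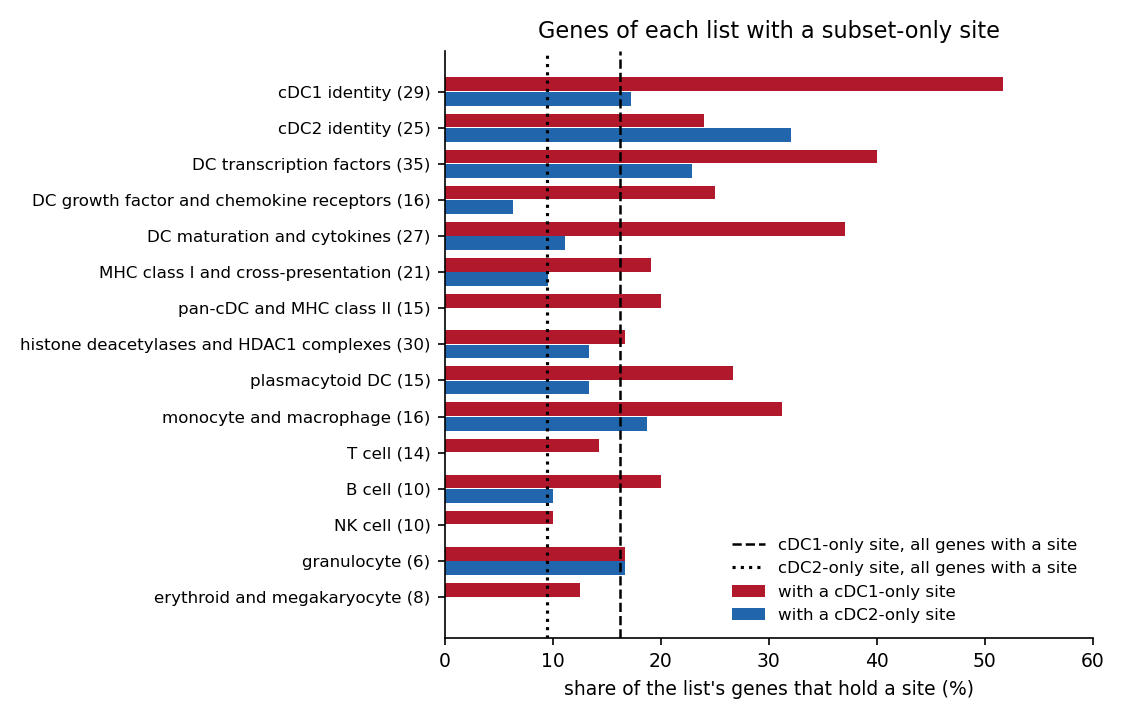
Share of the genes of each list with a site (%, x axis; number of genes in brackets) that hold a cDC1-only or a cDC2-only site, with the share over all genes with a site as a dashed line for cDC1-only sites (16.2%) and a dotted line for cDC2-only sites (9.49%). The cDC1 identity list reaches 51.7% with a cDC1-only site and 17.2% with a cDC2-only site, and the cDC2 identity list 24% and 32%.

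Among the transcription factors of cDC1, Irf8 held 2 cDC1-only sites of 22, both beyond the far end of the gene. They lay 36.1 kb (chr8:120774688-120774809) and 40.6 kb (chr8:120779226-120779340) after the start. The nearer stood at 49.8, 64.8, 35.8 and 8.12, with both WT libraries above both KO libraries, and its difference of -35.3 points (SE 14.3) did not pass (adjusted p = 0.510). The farther stood at 18.3, 45.7, 56.1 and 0.641, with overlapping genotypes. Replicate 2 of KO was the lowest at both. The site 30.1 kb after the start of Irf8 was in all 4 cDC1 libraries and in 3 of the 4 cDC2 libraries, so it is not a member, and the promoter was in all 8. Batf3 held 1 cDC1-only site, 1.98 kb after its start, at 69.7, 63.8, 46.7 and 42.9. The WT libraries lay above the KO libraries, and the difference of -21.9 points (SE 11.2) did not pass (adjusted p = 0.585). Its promoter was open in all 8 libraries. Id2 and Nfil3, further regulators of cDC1 development, held 0 cDC1-only sites, and Nfil3 held 2 cDC2-only sites.

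Among surface molecules, Cd8a held 4 cDC1-only sites of 9 and no site in all 8 libraries. Beside the promoter, the site 13.5 kb before the start stood at 68.4, 60.4, 64.8 and 55.3. The sites 8.45 and 9.05 kb after the start had mean percentiles of 29.5 and 44.4. Cadm1, an adhesion molecule of cDC1, held 4 of 44, all inside the gene. The highest (chr9:47755280-47755322) stood at 84.0, 74.5, 77.8 and 64.2, and the others had means of 40.7 to 50.9. Cd24a, a glycosylated surface protein, held 2 at mean percentiles 69.1 and 43.6. Cd36, a scavenger receptor, held 1 at 60.2, 69.0, 57.5 and 50.8. Xcr1, the receptor used in the sort, had no site given to it.

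Genes of antigen handling and signalling in the same list also held cDC1-only sites. Wdfy4, which cDC1 need to cross-present, held 3 of 26, all inside the gene, at mean percentiles of 38.1 to 61.5. Ppt1, a lysosomal thioesterase, held 2 upstream, and the one 24.9 kb before the start stood at 80.6, 72.1, 72.7 and 78.0. Plpp1, a lipid phosphatase, held 3. The site chr13:112790299-112790326, 10.5 kb outside the gene, stood at 80.8, 71.3, 30.6 and 32.0, with both WT libraries far above both KO libraries. Its difference of -44.7 points (SE 11.6) was the largest among the list genes and did not pass (adjusted p = 0.448). Clnk, an adaptor of immune receptors, held 2 with means of 18.7 and 39.1, and Gcsam, a signalling protein first known from germinal centres, held 1 at 77.5, 72.5, 71.3 and 77.6.

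The innate sensors and the cytokine of cDC1 followed. Tlr3, the sensor of double-stranded RNA, held 1 site 30.9 kb before its start at 33.2, 13.0, 10.9 and 32.1, low in every library. Tlr12, a sensor of profilin, held 1 at 34.1, 53.4, 48.4 and 9.0. Il12b, the p40 chain of IL-12, held 2. The one at the far gene end, 14.9 kb after the start, stood at 66.6, 65.7, 57.7 and 66.9, and the other, inside the gene, had a mean of 30.8. The list genes without a cDC1-only site given to them were Id2, Nfil3, Clec9a, Itgae, Tlr11, Ly75, Btla, Naaa, Rab7b, Cxcr3, Snx22, Tlr4, Septin3 and Mycl. For Clec9a the promoter site described above is the exception, since it was given to the neighbouring gene.

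Genes linked with cDC2 held cDC1-only sites too. Itgam encodes CD11b, which the cDC1 gate excluded, and held 1 cDC1-only site inside the gene (chr7:128080248-128080318), the highest ranked of this list, at 80.9, 77.4, 76.7 and 59.8. It held 0 cDC2-only sites. Zeb2, a repressor that favours cDC2, held 1 cDC1-only and 1 cDC2-only site, and Notch2, a receptor that some cDC2 need, held 1 and 2. Rbpj, the factor that carries the Notch signal, held 1 and 0, Cx3cr1, a chemokine receptor, 1 and 1, and Ccr2, another, 1 and 0. Apart from Itgam these sites had mean percentiles of 36.6 to 46.6.

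Of the other transcription factors, Etv6, an ETS-family repressor, held 2 cDC1-only sites of 70, and 3 cDC2-only. The site 31.4 kb after the start stood at 60.1, 53.9, 16 and 25, with WT above KO, a difference of -36.5 points (SE 13.5) that did not pass (adjusted p = 0.493). Nr4a3, an orphan nuclear receptor induced by stimulation, held the highest ranked site of the list, 22.0 kb before its start, at 85.2, 81.8, 77.3 and 87.0. Zbtb46, the factor that marks conventional dendritic cells, held 1 site at 59.2, 64.4, 55.2 and 57.1. It lay inside the gene span, 2.52 kb before the nearest annotated start. Bcl6, a transcriptional repressor, held 1 at 80.8, 62.8, 54.9 and 52.8, where the KO libraries were the lower. Rel and Nfkb1 of the NF-kappaB family, Jun and Fos of AP-1, Irf1 and Irf2, Runx1, Myb, Prdm1 and Tcf4 held 1 each, with mean percentiles of 21.0 (Irf1) to 60.7 (Rel).

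Receptor and cytokine genes with 2 or more cDC1-only sites were few. Flt3, the receptor for the growth factor that drives dendritic cell development, held 2 of 27. The one 5.82 kb before the start stood at 79.9, 80.9, 72.2 and 78.6, and the one 66.2 kb after it at 70.0, 54.1, 53.7 and 55.0. Il6, an inflammatory cytokine, held 2 close together, 1.73 and 1.10 kb before its start, with mean percentiles of 26.2 and 32.9. Hdac9, a class IIa histone deacetylase gene, held 4 of 64, with mean percentiles of 41.1 to 68.4. A pair of single sites is named after their values were seen. Cd86, a costimulatory molecule, held the highest ranked site of any listed gene at 87.0, 90.3, 75.6 and 80.7, with WT above KO (difference -10.5 points, SE 3.53, adjusted p = 0.465). Il10, an anti-inflammatory cytokine, held 1 at 74.5, 69.8, 71.6 and 78.1.

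Markers of other cells that a sort could let through were counted in the same way. Cell-type lists stood at 4 of 15 genes (26.7%) for plasmacytoid dendritic cells, 5 of 16 (31.3%) for monocytes and macrophages, 2 of 14 (14.3%) for T cells, 2 of 10 (20%) for B cells, and 1 gene each for NK cells (of 10), granulocytes (of 6) and erythroid cells and megakaryocytes (of 8). The first 2 of these shares and that of B cells lay above the background of 16.2%, and that of granulocytes, 16.7%, was near it. These shares too are not corrected for the number of sites in a gene. Of the plasmacytoid genes Runx2 held 46 sites of any kind, 0 of them cDC1-only, and Tcf4 39, 1 of them cDC1-only. The median gene span was 11.3 kb in the plasmacytoid list and 9.41 kb in that of monocytes and macrophages. The plasmacytoid genes with a cDC1-only site were Tcf4, Pacsin1, Ptprs and Lair1, and those of monocytes and macrophages Adgre1, Ccr2, Cx3cr1, Axl and Cd5l. The T cell genes were Lef1 and Themis, and the B cell genes Pax5 with 1 and Ebf1 with 3, both transcription factors that define B cells. Those of the last 3 lists were Il2rb, Ltf and Itga2b. Other markers of the same lists held 0, among them Siglech and Bst2, Csf1r and Fcgr1, Cd3e and Cd3d, Cd79a and Ms4a1, Ncr1, S100a8 and Gata1. Ptprs, a receptor phosphatase, stood at 85.4, 81.1, 72.9 and 85.8. The part of other cells in the cDC1-only sites was not tested. Of the promoters whose values have not been given, and picked after their values were seen, Ctla4 stood at 53.5, 69.4, 44.1 and 48.4, Cd207 at 67.2, 34.1, 56.8 and 23.8, and Pdcd1 at 28.8, 14.7, 16.0 and 40.8.

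The rule treats WT and KO cDC1 alike, so the effect of the Hdac1 genotype on rank could be tested. It also asks for a summit in every cDC1 library, so sites wholly gained or lost in KO cDC1 were not among those tested. Of the 8867 sites chosen in WT alone, 5740 (64.7%) were in both KO cDC1 libraries. Of the 7592 chosen in KO alone, 5391 (71.0%) were in both WT cDC1 libraries. Whether the genotype accounts for the rest was not tested. The question was whether cDC1-only sites rank differently in cDC1 with and without Hdac1 deletion. No single site passed. Limma's test on the rank percentile, adjusted by Benjamini-Hochberg over all 41868 sites present in the 4 cDC1 libraries, called 0 of the 4355 cDC1-only sites and 0 of all sites, a background of 0%. The lowest adjusted p was 0.431. At an unadjusted p under 0.05 there were 348 cDC1-only sites (7.99%), of which 121 were higher and 227 lower in KO, beside 8.9% of all sites tested. The median standard error was 13.7 percentile points for cDC1-only sites and 9.97 for all sites.

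Over all cDC1-only sites the median rank was lower in KO, though no site passed. The median KO minus WT difference was -2.56 percentile points beside -0.04 for all sites tested, and 2480 of 4355 (57.0%) were lower in KO beside 50.3% of all. The library medians given above are 47.3 ± 0.485 in WT and 45 ± 1.36 in KO (SD, n = 2). Both KO libraries lay below both WT libraries, and the difference of -2.34 had an exact permutation p of 0.333, the smallest possible (2-sided). For sites in all 8 libraries the difference was 0.207 (exact permutation p = 0.667). Without replicate 1 of KO cDC1 the median difference of the cDC1-only sites was -1.05, and without any other single library -2.51 to -3.53. The median went with the number of cDC2 libraries that held the site, from -2.56 for 0 through -1.71, -0.82 and -0.449 for 1, 2 and 3 to 0.138 for 4. The cDC2-only sites also had lower library medians in the KO than in the WT cDC2 libraries, with a difference of -1.27 (exact permutation p = 0.333).

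**Figure D5:**
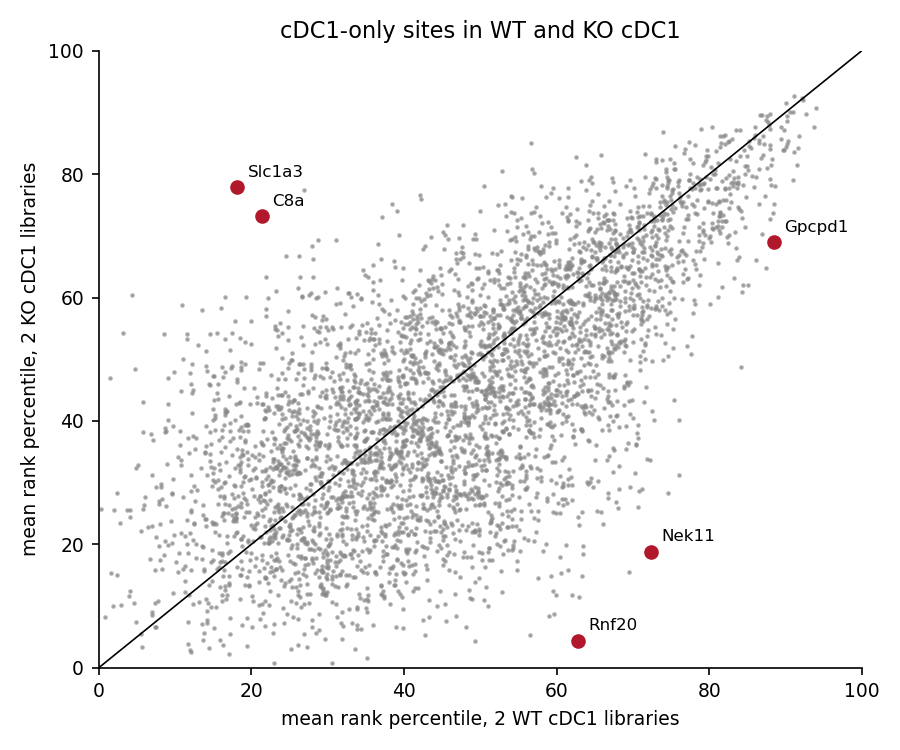
Mean rank percentile of each of the 4355 cDC1-only sites in the 2 WT (x axis) and the 2 KO (y axis) cDC1 libraries, with the line of equal values. The 5 sites of smallest p are marked with the gene they were given to, and 2480 sites lie below the line.

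The 5 cDC1-only sites with the smallest p are given by rule, and none passed. The first (chr15:8616084-8616114) lay 18 kb from Slc1a3, a glutamate transporter gene, at 25, 11.4, 79.1 and 76.6. Both KO libraries were far above both WT libraries, with a difference of 59.7 points (SE 12.6, adjusted p = 0.431 by limma, 0.00747 to 0.454 over the alternatives). A site inside C8a, a complement component gene (chr4:104857917-104858031), was also higher in KO, at 29.8, 12.9, 69.8 and 76.5 (difference 51.8, SE 12.9).

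The other 3 of these sites were lower in KO. The site inside Rnf20, a histone H2B ubiquitin ligase gene (chr4:49648245-49648269), stood at 56.2, 69.3, 2.56 and 6.17, a difference of -58.4 (SE 14.0). A site near Gpcpd1 (chr2:132587426-132587511), a phosphodiesterase gene, stood at 88.9, 88.1, 71.1 and 66.9, a difference of -19.5 (SE 4.75). A site inside the kinase gene Nek11 (chr9:105185671-105185779) stood at 70.1, 74.7, 6.45 and 31.2, a difference of -53.6 (SE 13.4). At each the WT and KO libraries did not overlap. The adjusted p was 0.448 at these 3 sites and at C8a, and over the alternatives it ran from 0.0412 to 0.787.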

How the data were processed

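Open chromatin was measured by ATAC-seq in 8 mouse libraries. Per the submitters' processing notes reads were processed by the authors with MACS2, Bowtie2, SAMtools and MultiQC against GRCm38 (mm10), and versions, filters and settings are not given in the sources used here. The authors deposited 1 list of summits per library, called separately, whose score is a −log10 p-type value. It was taken as the −log10 of the q-value because the lowest value in each file was 1.30 to 1.36. Depth is unknown, so no detection limit is given.

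Each list was shortened to its best summits, to the length of the shortest, and the summits were chained within 250 bp, and a site took the rank percentile of its best summit. Sites were given to the nearest of 21883 protein-coding RefSeq genes (GRCm38.p6) within 50 kb. KO and WT were compared with limma 3.58.1 (R 4.3.3, with a variance trend, Benjamini-Hochberg, threshold 0.05) over every site in all 4 cDC1 lists. The script was tested on simulated data. Counts used Python 3.11.15 with pandas 2.3.3, numpy 2.4.6 and scipy 1.17.1, and Wilson intervals have a confidence level of 95%. The alternatives were list length, chaining distance, cDC2 distance, gene-end window, run gap, scale, trend, a replicate block, a filter on low ranks and leaving out each library.

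The members and lists were chosen with earlier results of these data known. By rule the text names the 20 genes with the most sites, genes with 1 or more sites in the cDC1 identity, cDC2 identity and transcription factor lists and with 2 or more in the receptor, maturation and histone deacetylase lists, the 10 highest ranked sites, the 5 sites of smallest p where none passed, and promoter sites of list genes, then by rank. Cell-type markers are named as part of their list. No genome sequence was used, and motifs were searched only in RefSeq promoter windows.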

Additional observations from a re-analysis of the deposited data

How the results depend on the processing

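The number of cDC1-only sites stayed within 1.5 times of the reported value with all deposited summits (6047), with chaining at 100 or 500 bp (4041 and 4401), with a cDC2 distance of 2 kb (3751) and when a library was left out (4684 to 5254). It was 2346 with lists of 50% of the length, where 4.86% lay at a gene end, 51.9% inside and 43.2% between genes. The share at a gene end was 4.25% (4.255) without the 1 kb rule, 2.00% (1.998) with a 500 bp window and 7.03% with a 2 kb window, where 53.6% lay inside and 39.4% between genes; a narrower or wider window counts fewer or more sites by construction. Sites with a neighbour numbered 296 within 5 kb and 937 within 20 kb, against 563 within 10 kb.

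For KO against WT in cDC1, the members called were 0 on the rank percentile, 9 on the log2 of the quantile-normalised score (4 higher and 5 lower, with 82 of all sites), 1 with a replicate block (the site near Slc1a3, with 47 of all sites) and 0 to 2 when a library was left out. The 2 came without replicate 1 of KO cDC1, where the lone KO library is assumed to vary like the others, and were sites at Kdm4a and Rps27l, lower in KO. The cause was not tested. The logit scale, the fit without a trend and a filter at a mean percentile of 20 called 0. On the quantile-normalised score all 5 named sites passed, with adjusted p of 0.00747 to 0.0443 and the same directions. Same-numbered WT and KO cDC1 libraries did not deviate together in rank (correlation -0.0132 over all sites and -0.00113 over cDC1-only sites). This cannot show whether libraries of the same number were prepared together, which is not known. The fit with a replicate block is therefore given beside the main fit. Unknown depth limits all of these values: a site without a summit is not shown to be closed, and rank percentiles show order within a library and no amount of accessibility. No group has more than 2 libraries, so no single library could be tested as an outlier.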
